A study of Mus musculus with 6 samples.

Results

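The protein genes of the cytosolic ribosome were followed in endothelial cells sorted from mouse spleens that lacked or carried Stab1. Genes were taken by symbol alone, as rows named Rpl or Rps followed by a number and at most 1 letter, together with Rplp0, Rplp1, Rplp2 and Rpsa. The rule found 81 of the 23337 genes in the deposited table, of which 32 encode small-subunit proteins, 46 large-subunit proteins and 3 the proteins of the P stalk. The rule itself reads no expression value, although it was set with earlier results of these data known. Some ribosomal proteins carry other symbols (Fau and the ribosome-bound scaffold Gnb2l1 among them), and a few genes inside the rule are close relatives whose main tissue is another (Rpl3l, Rpl10l and Rpl39l), so both kinds are described apart.

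RNA was sequenced from 3 Stab1-/- libraries (KO 2, KO 3 and KO 4) and 3 wild-type libraries (WT 1, WT 3 and WT 4) of C57BL/6 mice. The protein of Stab1, stabilin-1 or Clever-1, is an endocytic receptor of sinusoids, and the study concerned contacts between spleen vessels and lymphocytes. Cells positive for CD31 and negative for CD45 were sorted after collagenase digestion of the spleen, and cDNA was made from total RNA with an ultra-low-input kit followed by transposase-based libraries, a combination that does not record strand. The age, the sex and the making of the allele are not given in the labels, nor is it stated whether the libraries of a genotype are from separate animals. The p-values therefore measure the spread between libraries and nothing more.

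Each cytosolic ribosome is built from ribosomal RNA and a near-complete set of these proteins, most of them present in a single copy per ribosome. The small subunit decodes messenger RNA, the large subunit joins amino acids and holds the exit tunnel, and the P stalk on the large subunit recruits the translational GTPases. Transcripts of ribosomal proteins in mammals usually begin with a C followed by a run of pyrimidines, the terminal oligopyrimidine or TOP element, through which mTORC1 signalling controls their translation. The genes are also known for the great number of processed pseudogenes that their messenger RNAs have left in mammalian genomes.

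Expression was deposited as RPKM, read numbers scaled to transcript length and library size, so levels can be set side by side between genes of different length. Stab1 itself had 2.32, 2.62 and 2.49 RPKM in the KO libraries, against 21.6, 43.6 and 31.4 RPKM in the WT libraries (exact permutation test of the means, two-sided p = 0.1, the smallest that the 20 assignments allow). The effective library size, which includes the authors' scaling, was 40836900 to 50836000 reads, of which 148244 to 197078 reads in KO libraries and 147478 to 163828 reads in WT libraries fell on the 81 genes. All 11 endothelial markers examined were detected, with summed levels of 3819 to 4328 RPKM in KO and 3293 to 3875 RPKM in WT libraries, while 15 of 17 leukocyte markers were too low to test and Ptprc, the gene of CD45, was at or below 0.11 RPKM in each library.

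**Figure D1:**
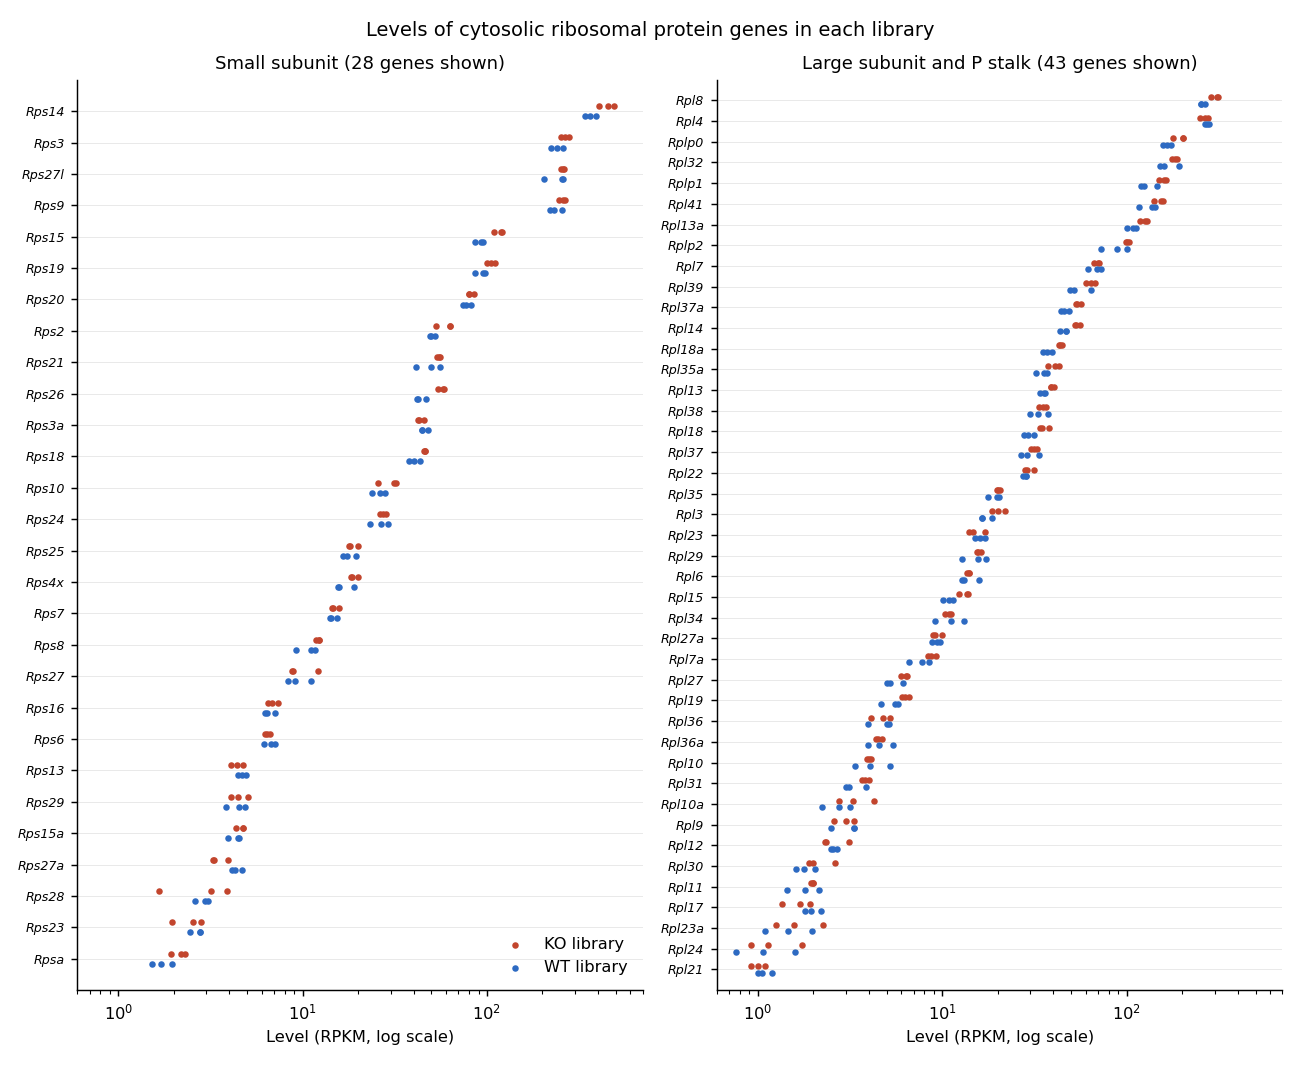
Level in RPKM (log scale) of tested cytosolic ribosomal protein genes, one dot per library, KO above WT for each gene, with 28 of the 31 tested small-subunit genes on the left (3 are not drawn) and the 43 tested large-subunit and P stalk genes on the right. Levels run from about 1 RPKM for Rpl21 to 406 RPKM for Rps14, and the KO and WT dots of most genes lie close together beside that span.

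Sequence shared with other genes was examined first, since it bears on what a level of such a gene can mean. Each member's transcript was cut into all windows of 50 bases, and a window counted as shared where another annotated gene's transcript held it exactly, on either strand. By that measure a member had a median of 53.1% of its windows shared, whereas the median over all genes tested was 0. An annotated pseudogene shared at least 1 window with 78 of the 81 members, the median number of such pseudogenes was 8, and Rpl7a had the most with 120. Rpl3l and Rpl39l were among the 3 that shared no window with any annotated gene, and both were lower in level than the members printed below.

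To show how close the copies come, 60 bases from the middle of the longest coding exon are printed, each member above its nearest copy in the annotated transcripts. A pair low in the level order has most of its windows shared, and a pair near the top of that order has few. The pairs thus contrast shared sequence as well as level, and they do not stand for the family. Sequences are from the GENCODE M21 transcripts (GRCm38, the same assembly as mm10), 5′ to 3′ in the direction of the transcript, and capitals mark bases that differ within a pair. All members shown lie in coding exons. Rpl5, which chaperones a ribosomal RNA and binds Mdm2, lies at chr5:107903737-107903796 on the plus strand, and its copy Gm15500, a transcribed processed pseudogene, at chr7:114705709-114705768 on the minus strand. Rps12, a small-subunit protein, lies at chr10:23786792-23786851 on the minus strand, and Gm44510, a locus awaiting experimental confirmation of its type in the annotation, at chr7:56014059-56014118 on the plus strand.
Rpl5: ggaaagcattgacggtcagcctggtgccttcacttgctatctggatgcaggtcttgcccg
Gm15500: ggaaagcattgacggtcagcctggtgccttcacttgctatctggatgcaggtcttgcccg
Rps12: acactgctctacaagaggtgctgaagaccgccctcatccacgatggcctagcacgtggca
Gm44510: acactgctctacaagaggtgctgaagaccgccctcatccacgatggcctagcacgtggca
In both pairs the windows were identical over all 60 bases, so a read from there carries nothing that tells member and copy apart.

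Rps3 and Rpl8 stand near the other end. Rps3, a protein of the mRNA entry site of the small subunit, lies at chr7:99479345-99479404 on the minus strand. The nearest copy found, the processed pseudogene Gm8130, lies at chr16:23050727-23050786 on the plus strand. Rpl8, a large-subunit protein close to the catalytic centre, lies at chr15:76904897-76904956 on the plus strand. The nearest copy found, the transcribed processed pseudogene Gm13890, lies at chr2:105537172-105537231 on the minus strand.
Rps3: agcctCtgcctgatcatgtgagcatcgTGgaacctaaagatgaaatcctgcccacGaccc
Gm8130: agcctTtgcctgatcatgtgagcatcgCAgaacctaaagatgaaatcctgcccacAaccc
Rpl8: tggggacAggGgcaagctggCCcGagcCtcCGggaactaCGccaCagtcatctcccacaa
Gm13890: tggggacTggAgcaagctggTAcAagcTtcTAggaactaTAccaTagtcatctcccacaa
The windows differed at 4 bases for Rps3 and at 11 bases for Rpl8, so a read that covers any of these bases can be told apart from the copy shown.

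Levels of the members fell over a range far wider than the near-equal amounts in which the proteins enter the ribosome. The highest, Rps14, averaged 406 RPKM over the 6 libraries, and the lowest that could be tested, Rpl21, averaged 1.04 RPKM, a 389-fold span. The level at the 90th percentile of the 74 tested members was 88.5 times that at the 10th. In all, 14 members averaged 100 RPKM or more, 32 lay between 10 and 100 RPKM, 28 between 1 and 10 RPKM, and 7 below 1 RPKM. The 10 highest together held 58.4% of the summed RPKM of the family. This order hardly moved between libraries, with Spearman correlations of 0.993 to 0.997 between any pair of libraries over the 74 members, which share annotation, transcript length and copies in every library.

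Among the 10 highest were 6 small-subunit genes. Rps14, whose human counterpart is linked to the anaemia of a myelodysplastic syndrome when a copy is lost, averaged 448 ± 41.8 RPKM in KO and 365 ± 23.3 RPKM in WT libraries (SD, n = 3 each, as for all means below). Rps3, also known for a role in DNA repair, had 266 ± 12.7 RPKM in KO and 240 ± 17.4 RPKM in WT. Rps3, Rps27l and Rps9 had overall means of 247 to 253 RPKM, while their values in single libraries ran from 203 to 279 RPKM, so their order among each other is within the spread. The large-subunit genes at the top were Rpl8, at 302 ± 13.6 RPKM in KO and 257 ± 7.84 RPKM in WT, Rpl4, which lines the exit tunnel, and Rpl32, with Rplp0 of the P stalk between them.

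The 5 lowest of the tested members all belonged to the large subunit. Rpl21 had 1.09, 0.922 and 1.0 RPKM in KO 2, KO 3 and KO 4, against 1.19, 1.0 and 1.05 RPKM in WT 1, WT 3 and WT 4. Rpl24, which forms a bridge to the small subunit, averaged 1.20 RPKM over all libraries, Rpl23a, at the mouth of the exit tunnel, 1.60 RPKM, and Rpl17, also near the tunnel mouth, 1.82 RPKM. Rpl11, which acts with Rpl5 as a brake on Mdm2, averaged 1.88 RPKM. The shared windows of these genes made up 26.2% of the transcript for Rpl21, 81.7% for Rpl24, 85.7% for Rpl23a, 78.7% for Rpl17 and 79.2% for Rpl11.

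The remaining 7 members did not reach 1 RPKM in 3 libraries and were not tested. Rpl10l, a testis relative of Rpl10, was listed at 0 in every library. Rpl26, which binds the p53 messenger RNA as well as the ribosome, had 0.074, 0.036 and 0 RPKM in KO libraries and 0.044, 0 and 0 RPKM in WT libraries, a total of 4 reads. Rpl5 had 0.837, 0.721 and 0.958 RPKM in KO and 0.891, 0.774 and 0.802 RPKM in WT libraries, with 93.8% of its windows shared.

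Rps12 had 1.01, 0.873 and 1.13 RPKM in KO and 0.787, 0.878 and 0.845 RPKM in WT libraries, with 90.1% of its windows shared. Rpl28, a large-subunit protein found in animals but not in budding yeast, had 0.811, 0.912 and 0.741 RPKM in KO and 1.21, 0.997 and 1.15 RPKM in WT libraries. Its groups did not overlap, and it missed the filter by its value in WT 3; the authors' deposited table gives it a log2 fold change of -0.425 and an adjusted p of 0.649. Rpl3l, the striated-muscle relative of Rpl3, stayed at or below 0.236 RPKM. Rpl39l, the testis relative of Rpl39, had 1.98 RPKM in KO 3 and at most 0.147 RPKM in the other libraries, so its signal came from a single library.

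Across the 81 members, level and the percentage of shared windows had a Spearman correlation of -0.35 (Pearson's r -0.31), and of -0.49 (r -0.51) over the 77 members without the paralogue relatives Rpl3l, Rpl10l, Rpl39l and Rps27l. With windows of 100 bases it was -0.45 over all 81. Transcript length and GC content, by comparison, had correlations of -0.08 and 0.21 with level. These are descriptions over genes that were measured in the same libraries and counted by the same rules, and genes are not independent replicates. Members with 70% or more of their windows shared had a median of 4.57 RPKM, those with 40 to 70% 18.2 RPKM, and those with less than 40% 50.3 RPKM.

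When each level was divided by the unshared portion of its transcript, the span between the 90th and 10th percentiles dropped to 41.5-fold, and to 42.2-fold with windows of 100 bases. The span between the highest and the lowest member widened instead, to 465-fold with windows of 50 bases. Exceptions stood on both sides. Rpl35, a protein beside the exit tunnel, had 95.1% of its windows shared and still averaged 19.7 RPKM, while Rps15a, with 6.14% shared, averaged 4.47 RPKM. How the counting program treated reads that fit several places, and how long the reads were, is not given in the sources used here, and the part of shared sequence in the levels was not tested.

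**Figure D2:**
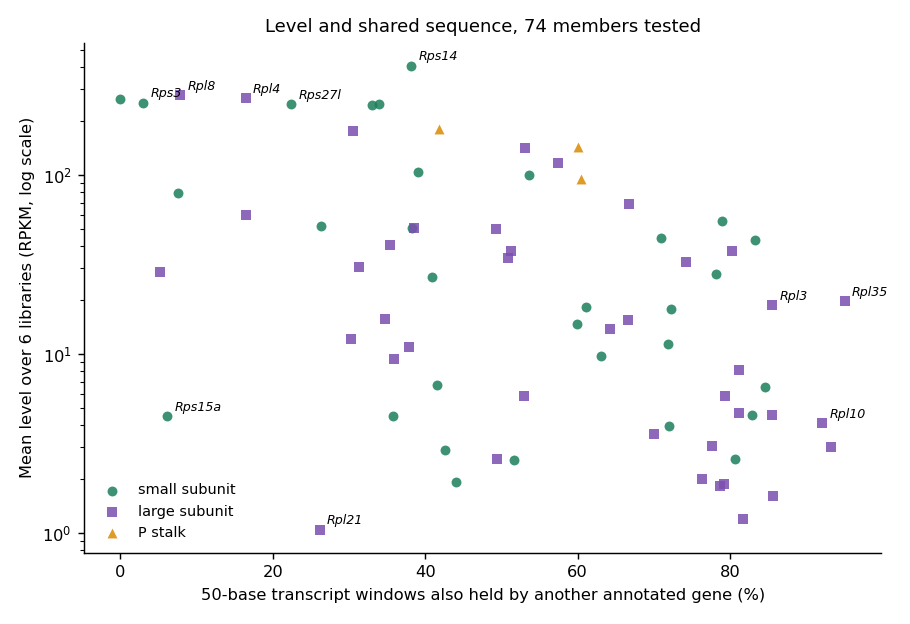
Mean level over 6 libraries (RPKM, log scale) against the percentage of a member's 50-base transcript windows that another annotated gene also holds, one point per tested member, coloured by subunit. Members with few shared windows such as Rps3 (2.96%) and Rpl8 (7.86%) sit at the top left, members such as Rpl24 and Rpl23a (over 80%) at the bottom right, and Rpl35, Rps15a and Rpl21 lie away from that slope.

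Loss of Stab1 was then set against wild type. No member passed an adjusted p of 0.05 in limma, of 74 tested, while 1.94% of all 11035 genes tested did (214 genes, 0.671% higher and 1.27% lower). With library quality weights 21 members passed, 20 higher and 1 lower, but so did 33.1% of all genes (16.1% higher). At an unadjusted p under 0.05 there were 15 members, all higher in KO, against 6.17% of all genes in that direction and 9.57% in the other, where there was no member. The voom fit on reads recovered from the RPKM also called 0 members and left 8 at an unadjusted p under 0.05. In the authors' deposited table, 0 of the 77 members listed had an adjusted p under 0.05 (background 1.57%), and the lowest was 0.197, for Rps15. Changes were small as well as uncalled, and the fit seldom called small shifts in simulated data (16% at 1.5-fold). The 95% interval of the log2 fold change lay wholly within a 1.5-fold change for 65 of the 74 members, and it included 0 for 59. In bulk samples like these, fewer cells of a type and less RNA per cell cannot be told apart.

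The direction was nevertheless mostly shared. A positive log2 fold change, KO over WT on the log2(RPKM + 0.5) scale, was found for 58 of 74 members (78.4%), against 54.3% of all genes tested, and the median was 0.13 against 0.03 for all genes. KO and WT values did not overlap for 22 members that were higher in KO (29.7%, background 10.7%) and for 1 that was lower (background 9.57%). Summed over the 81 members, the level was 4719.9, 4817 and 4487 RPKM in KO 2, KO 3 and KO 4, against 4379, 3903 and 4126 RPKM in WT 1, WT 3 and WT 4. All 3 KO sums lay above all 3 WT sums. The means were 4675 ± 169.5 RPKM in KO and 4136 ± 238 RPKM in WT, a ratio of 1.13, and the family made up 0.962% ± 0.02 and 0.875% ± 0.028 of all RPKM.

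**Figure D3:**
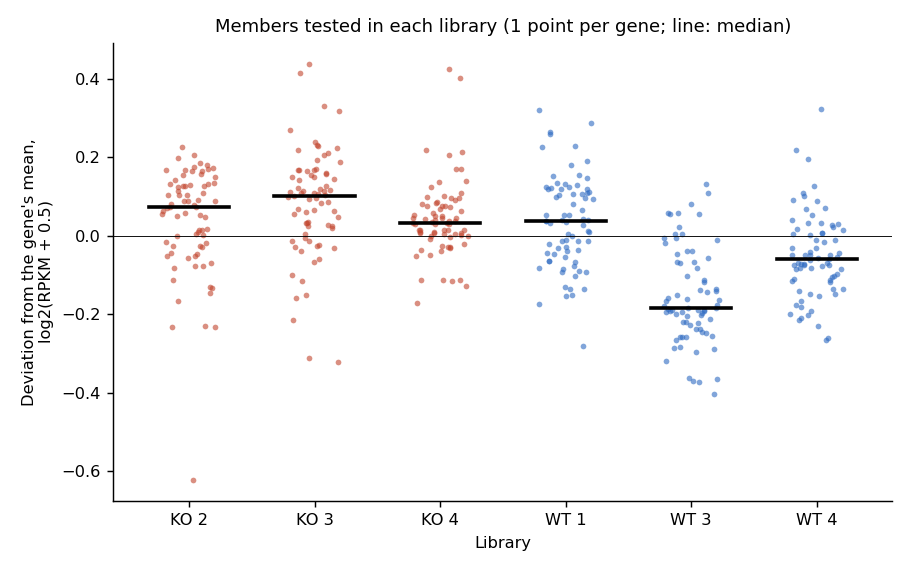
Deviation of each tested member from its own mean over the 6 libraries, on the log2(RPKM + 0.5) scale, one point per member and a line at the library's median, with the KO libraries on the left. The medians are 0.07, 0.10 and 0.03 in KO 2, KO 3 and KO 4 and 0.04, -0.18 and -0.06 in WT 1, WT 3 and WT 4, so WT 3 lies lowest and WT 1 lies among the KO libraries.

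Among themselves, the WT libraries differed by more than the genotype means on the measure that follows, and the KO libraries by less. The genotype means differed by 0.14 on it. The median deviation of the members from their own means was 0.07, 0.10 and 0.03 in KO 2, KO 3 and KO 4, against 0.04, -0.18 and -0.06 in WT 1, WT 3 and WT 4. WT 1 thus lay above KO 4, and the groups overlapped on this measure. WT 3 held the lowest value of 48 members, and KO 3 the highest of 29. Without WT 3 the median log2 fold change of the members was 0.06 rather than 0.13. A count of genes with no overlap can only stay or rise when a library is left out, as fewer values must stand apart. Without WT 1 the members higher in KO with no overlap were 40 of 74 rather than 22, where 18.2% of all genes tested met that condition. Without WT 3 they were 25 of 74, against 22% of all genes.

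Markers of other cells and of handling were measured in the same libraries. The 9 platelet and megakaryocyte markers summed to 62.3, 66.3 and 83.5 RPKM in KO 2, KO 3 and KO 4, against 134, 275 and 96.6 RPKM in WT 1, WT 3 and WT 4. All 9 had a negative log2 fold change (median -0.87), and 4 were lower at an unadjusted p under 0.05 in limma (9.57% of all genes). Pf4 alone was called (lower, adjusted p = 0.016 in limma, but 0.077 without KO 3 and 0.11 in the unfiltered fit), and none of the 9 was at 0 throughout. Dissociation and early response genes summed to 6984, 8193 and 7386 RPKM in KO, against 7080, 6639.8 and 6380.3 RPKM in WT. Of the 18 genes, 16 had a positive log2 fold change (median 0.20), and 6 were higher at an unadjusted p under 0.05 in limma (6.17% of all genes). Hspa8 alone was called (higher, adjusted p = 0.049 in limma). Its call was lost when any 1 KO library was left out and in 6 other alternatives (adjusted p at most 0.21). Erythroid markers summed to 19.5, 3.49 and 2.70 RPKM in KO and 51.5, 45.8 and 9.44 RPKM in WT, with Hba-a1 and Hba-a2 at 0. Sums of pericyte and smooth muscle markers were 303 to 396 RPKM in KO and 277 to 538 RPKM in WT (1 of 7, Rgs5, fell, a call lost without KO 2, KO 3 or WT 4, adjusted p at most 0.092 there, and in the unfiltered fit, 0.10), of reticular and fibroblast markers 54.4 to 83.6 RPKM in KO and 40.7 to 211 RPKM in WT, of leukocyte markers 9.77 to 21.3 RPKM in KO and 10.6 to 25.6 RPKM in WT, and of cycling genes 54.8 to 87.3 RPKM in KO and 64.4 to 69.2 RPKM in WT. In limma 0 of the tested erythroid, reticular, leukocyte, cycling or endothelial markers passed (1 lower, 0, 1 lower, 0 and 2 higher at an unadjusted p under 0.05). The part of these cells, or of the dissociation response, in the family's level was not tested.

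Positive values were most frequent among the highly expressed members. Of the 14 members at 100 RPKM or more, 13 had a positive log2 fold change, their median was 0.22, and 8 (57.1%) were higher in KO with no overlap. Of all 932 genes tested at that level 690 were positive, with a median of 0.10 and a background of 22.3%. Of the 32 members at 10 to 100 RPKM, 29 were positive, the median was 0.17, and 13 (40.6%) did not overlap, against 62.2%, 0.06 and 13.4% for all genes at that level. Of the 28 members at 1 to 10 RPKM, 16 were positive, the median was 0.02, and 1 was higher and 1 lower with no overlap, against 42.6% positive, a median of -0.05 and 5.88% higher for all genes. Level and log2 fold change had a Spearman correlation of 0.47 over the 74 members and of 0.24 over all genes tested, and GC content and log2 fold change one of 0.35 over the members and 0.46 over all genes. These are descriptions across genes of the same libraries.

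**Figure D4:**
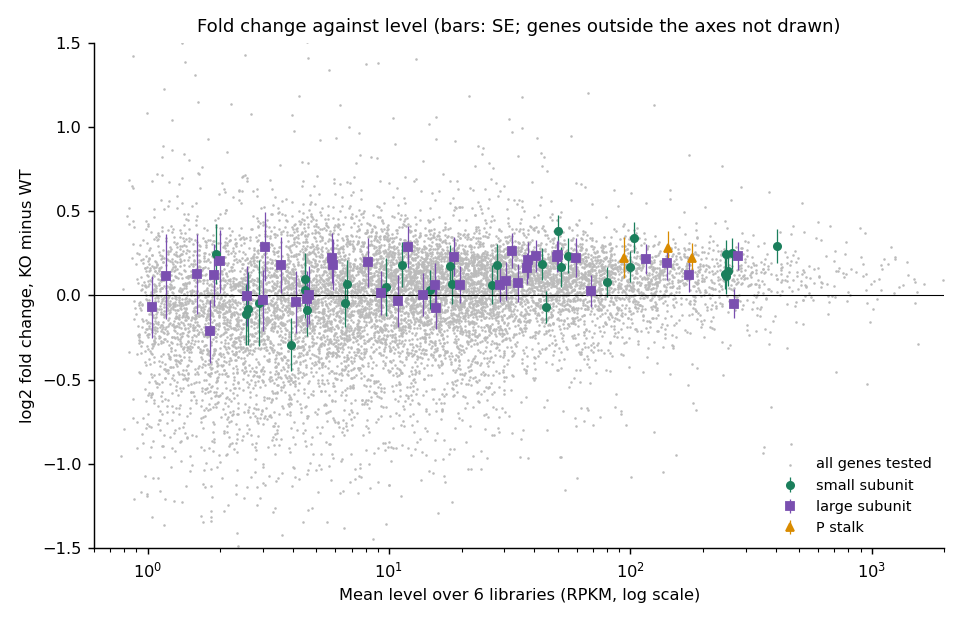
Log2 fold change (KO minus WT, on the log2(RPKM + 0.5) scale, bars: SE) of the 74 tested members by subunit against mean level in RPKM (log scale), over all genes tested in grey. The members stay between -0.29 (Rps27a) and 0.38 (Rps26), and above 10 RPKM nearly all lie over the zero line.

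By subunit, the small-subunit genes summed to 2548, 2629 and 2396 RPKM in KO 2, KO 3 and KO 4, against 2329, 2079 and 2207 RPKM in WT 1, WT 3 and WT 4, with no overlap and a ratio of 1.14. The large-subunit genes summed to 1709, 1723 and 1662 RPKM in KO, against 1629, 1474 and 1541 RPKM in WT, a ratio of 1.10. The small-to-large ratio of summed levels was 1.49, 1.53 and 1.44 in KO 2, KO 3 and KO 4, against 1.43, 1.41 and 1.43 in WT 1, WT 3 and WT 4. Its means were 1.49 ± 0.042 in KO and 1.42 ± 0.012 in WT. The groups did not overlap, but KO 4 (1.442) lay close to WT 4 (1.432). Medians of the log2 fold change over single members were 0.12 for 31 small-subunit genes and 0.12 for 40 large-subunit genes.

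Among small-subunit genes, Rps26, which contacts messenger RNA in the exit channel and whose human counterpart is mutated in Diamond-Blackfan anaemia, had 54.4, 58.5 and 58.0 RPKM in KO 2, KO 3 and KO 4, against 46.8, 41.6 and 42.4 RPKM in WT 1, WT 3 and WT 4. All KO values lay well above the WT values. Its log2 fold change of 0.38 ± 0.10 (SE) was the largest in the family, with an adjusted p of 0.086 in limma. Once trends with GC content and transcript length were removed, it was 0.44 with an adjusted p of 0.029 (0.0029 to 0.35 over all alternatives), and Rpl15 passed as well, so 2 members were called there against a background of 2.2%.

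Rps15, a protein near the decoding site, had 119, 121 and 109 RPKM in KO libraries, against 92.7, 86.1 and 95.7 RPKM in WT libraries. The groups stood apart by more than their spread, with a log2 fold change of 0.34 ± 0.09 (SE) and an adjusted p of 0.11 in limma. Rps14 had 453, 486 and 403 RPKM in KO and 389, 342 and 364 RPKM in WT libraries. The lowest KO value, in KO 4, was close to the highest WT value, in WT 1, and the adjusted p in limma was 0.20 at a log2 fold change of 0.29 ± 0.10 (SE).

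Other small-subunit genes known from disease or signalling moved less. Rps19, the gene most often mutated in human Diamond-Blackfan anaemia, had 100.2, 111 and 105 RPKM in KO and 98.2, 86.6 and 95.7 RPKM in WT libraries, with no overlap and an adjusted p of 0.40. Rps6, the target of the S6 kinases below mTORC1, had 6.28, 6.65 and 6.39 RPKM in KO and 6.74, 6.16 and 7.10 RPKM in WT libraries. Its groups overlapped, and the 95% interval of its log2 fold change ran from -0.36 to 0.27. Rps3 had a log2 fold change of 0.15 ± 0.09 (SE) with overlapping groups. Rpsa, also known as the laminin receptor and mutated in people born without a spleen, stood at 2.18, 1.92 and 2.30 RPKM in KO against 1.70, 1.95 and 1.52 RPKM in WT libraries. The WT 3 value lay above the KO 3 value, and the interval of the log2 fold change ran from -0.15 to 0.65.

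Lower values in KO were few. Rps27a, which encodes a ribosomal protein fused to ubiquitin and so supplies both, had 3.26, 3.31 and 3.94 RPKM in KO libraries, against 4.67, 4.17 and 4.32 RPKM in WT libraries. It was the only tested member whose KO values all lay below its WT values, with a log2 fold change of -0.29 ± 0.16 (SE) and an adjusted p of 0.40 in limma. Rps23, at the decoding centre, had 2.83, 1.95 and 2.56 RPKM in KO and 2.76, 2.46 and 2.76 RPKM in WT libraries, the KO 3 value setting its negative log2 fold change of -0.11 ± 0.18 (SE). Rps13 was at -0.09 ± 0.15 (SE) with overlapping groups.

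In the large subunit, Rpl8 gave one of the steadiest differences, with 307, 312 and 287 RPKM in KO 2, KO 3 and KO 4, against 266, 252 and 252 RPKM in WT 1, WT 3 and WT 4. Its pooled SD within groups, 0.056 on the log2 scale, was among the 3 smallest in the family, beside Rpl13 (0.041) and Rpl14 (0.057), and its log2 fold change was 0.23 ± 0.08 (SE; adjusted p = 0.22 in limma). Rpl4, of almost the same level, had 265, 250.4 and 277 RPKM in KO and 266, 279 and 274 RPKM in WT libraries. Its groups overlapped and its log2 fold change was -0.05 ± 0.08 (SE), with a 95% interval from -0.24 to 0.14. Whether Rpl8 and Rpl4 differ in their response was not tested.

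Rpl13a, known in human monocytic cells for leaving the ribosome after interferon-gamma to silence inflammatory messages, had 126, 130 and 118 RPKM in KO and 112, 101 and 109 RPKM in WT libraries, with no overlap (log2 fold change 0.22 ± 0.09 SE, adjusted p = 0.28 in limma). Rpl15, which lies on chromosome 14 within 20 Mb of Stab1, had 13.6, 12.4 and 13.9 RPKM in KO and 10.9, 10.1 and 11.4 RPKM in WT libraries. Its groups did not overlap, and its log2 fold change was 0.29 ± 0.12 (SE; adjusted p = 0.30, and 0.041 after removal of the GC and length trends, over a range of 0.041 to 0.67). Rps24, the other member within that distance, was at 26.3, 27.4 and 28.4 RPKM in KO and 29.1, 23.2 and 26.5 RPKM in WT libraries, with overlap. Rpl10a, of the mobile L1 stalk, had 3.29, 4.27 and 2.74 RPKM in KO and 3.15, 2.22 and 2.74 RPKM in WT libraries, a log2 fold change of 0.29 whose 95% interval ran from -0.17 to 0.74.

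Rpl17 and Rpl23 had the most negative values of the large subunit. Rpl17 had 1.69, 1.34 and 1.93 RPKM in KO and 2.20, 1.81 and 1.95 RPKM in WT libraries, a log2 fold change of -0.21 ± 0.19 (SE) with overlapping groups. Rpl23, another brake on Mdm2, was at -0.07 ± 0.13 (SE). Rpl11 had 2.0, 1.99 and 1.94 RPKM in KO and 2.14, 1.43 and 1.81 RPKM in WT libraries, with overlap. Rpl10, which joins the large subunit late in assembly, was at 3.92, 4.01 and 4.13 RPKM in KO and 5.22, 3.36 and 4.05 RPKM in WT libraries, the 2 extremes both being WT. Rpl38, needed in mouse embryos for translation of Hox messages, had a log2 fold change of 0.07 ± 0.11 (SE) at a mean of 34.3 RPKM, with overlap.

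Spread within groups was largest in members of a few RPKM. Rps28 ranked first with a pooled SD of 0.385 on the log2 scale, its values being 1.66, 3.19 and 3.89 RPKM in KO and 3.08, 2.96 and 2.61 RPKM in WT libraries, so that KO 2 alone was low. Rpl24 (0.35), Rpl23a (0.321), Rpl10a (0.249) and Rps27 (0.228) were also among the most variable. The median over members was 0.114, against 0.183 over all genes tested. In terms of reads, Rps28 rested on 262 and Rpl24 on 223 over all 6 libraries, against 67980 for Rps14, so counting error adds to the spread of the low members.

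The 3 P stalk genes had positive log2 fold changes of much the same size. Rplp0, which anchors the stalk, had 201.1, 201.4 and 179 RPKM in KO 2, KO 3 and KO 4, against 173, 158 and 166 RPKM in WT 1, WT 3 and WT 4, with no overlap. Rplp1 had 159, 163 and 150.2 RPKM in KO and 146, 119 and 124 RPKM in WT libraries, with no overlap. Rplp2 had 103, 101.1 and 99.7 RPKM in KO and 101.0, 72.6 and 88.3 RPKM in WT libraries, where WT 1 reached the KO values. Their log2 fold changes were 0.22, 0.28 and 0.22 with adjusted p of 0.27, 0.22 and 0.40 in limma, and their sum averaged 452 ± 20.2 RPKM in KO and 383 ± 35.2 RPKM in WT. Rplp1 and Rplp2, which enter the stalk as dimers, differed in level, at 144 and 94.2 RPKM over all libraries.

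Some close relatives of the same protein differed widely in level. Rps27l, a p53-inducible relative of Rps27, averaged 249 RPKM, against 9.70 RPKM for Rps27, and 22.4% and 63.1% of their windows were shared. In KO libraries Rps27l had 263, 257 and 253 RPKM, against 255, 203 and 259.9 RPKM in WT libraries, WT 3 alone being low. Rpl22l1, a relative of Rpl22, averaged 25.5 RPKM beside 28.7 RPKM for Rpl22, and Rpl36al 41.3 RPKM beside 4.56 RPKM for Rpl36a, whose windows were shared at 63.3% and 85.5%. The row named Rps4y2, an older symbol of Rps4l, which RefSeq lists as a transcribed pseudogene on chromosome 6, averaged 104 RPKM beside 17.9 RPKM for Rps4x. Of their windows 14.9% and 72.2% were shared, so the levels of this pair are not on an equal footing. Rps4y2 had 139, 105 and 107 RPKM in KO and 92.2, 86.2 and 95.5 RPKM in WT libraries, with no overlap (log2 fold change 0.34 ± 0.12 SE, adjusted p = 0.21 in limma).

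Ribosomal proteins that the naming rule misses lay in the same range. Gnb2l1, now called Rack1, a scaffold on the head of the small subunit that brings protein kinase C to the ribosome, had 221, 205 and 178 RPKM in KO and 171, 169 and 164 RPKM in WT libraries. The groups did not overlap, and the log2 fold change was 0.26 ± 0.10 (SE; adjusted p = 0.26 in limma), the size seen in the abundant members. Fau, fused to a ubiquitin-like protein, had 5.14 ± 1.07 RPKM in KO and 4.99 ± 0.504 RPKM in WT. The group of 7 also holds Rpl7l1, a nucleolar relative of Rpl7 at 49.8 RPKM, and the row Rps4y2, listed as a pseudogene. In limma 0 of the 7 were called. At an unadjusted p under 0.05 there were 2, Gnb2l1 and Rps4y2, both higher in KO (6.17% of all genes in that direction). A further 6 rows of the table carry a ribosomal protein symbol with the suffix for a pseudogene, and none exceeded 1.73 RPKM.

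The first bases of the transcripts were read for letters of the TOP element. RefSeq start windows (GRCm38.p6) were available for 61 members, and 40 bases around the annotated start, 20 on each side, were searched for CTCTTT or CTTTCC, which can overlap. On the gene's strand 16 of the 61 members (26.2%) held either in any of their listed start windows, against 3.86% of 27025 genes. On the other strand it was 1 of 61 members (1.64%) against 3.40%. A gene with more listed starts has more windows in which to match. The windows of 4 members are shown because they hold CTCTTT alone, CTTTCC alone or both overlapping, with the letters found in capitals: Rps26 at chr10:128626487-128626526 on the minus strand, Rpl18 at chr7:45718051-45718090 on the plus strand, Rpl13a at chr7:45128726-45128765 on the minus strand and Rps9 at chr7:3704021-3704060 on the plus strand.
Rps26: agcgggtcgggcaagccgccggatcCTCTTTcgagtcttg
Rpl18: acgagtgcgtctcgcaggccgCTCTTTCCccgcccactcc
Rpl13a: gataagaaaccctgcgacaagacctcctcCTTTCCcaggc
Rps9: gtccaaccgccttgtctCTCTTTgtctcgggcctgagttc
The match is one of letters, and a window without them says nothing of the element. Among tested members, the 13 with such letters had a median log2 fold change of 0.13 (11 positive) and the 41 without them 0.12 (31 positive).

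Genes around the ribosome were described from lists of known factors. The background for their counts at an unadjusted p under 0.05 was 6.17% of all genes tested higher in KO and 9.57% lower. Of 84 ribosome assembly factors 0 were called in limma (4 higher and 9 lower at an unadjusted p under 0.05), with a median log2 fold change of 0.05 and a range from -0.76 to 0.47. The 2 of smallest p were both lower in KO. Ddx10, a helicase of the small-subunit processome, had 3.45, 4.0 and 6.11 RPKM in KO and 7.73, 7.92 and 7.72 RPKM in WT libraries (adjusted p = 0.10), and Mphosph10, of the same particle, 5.80, 6.74 and 8.93 RPKM in KO and 12.4, 10.1 and 11.8 RPKM in WT libraries (adjusted p = 0.11). The groups did not overlap for either gene, and in both KO 4 lay nearest to WT.

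Of 30 genes of RNA polymerases I and III and their factors, 0 were called in limma (0 higher and 3 lower at an unadjusted p under 0.05; median 0.06). Bdp1, a factor that brings polymerase III to its promoters, had 0.923 ± 0.227 RPKM in KO and 1.91 ± 0.43 RPKM in WT (adjusted p = 0.12), and Taf1d, of the polymerase I promoter complex, 7.22 ± 1.92 RPKM in KO and 11.0 ± 1.09 RPKM in WT (adjusted p = 0.16). Elongation factors and other TOP genes gave 0 calls of 32 in limma (5 higher and 3 lower at an unadjusted p under 0.05; median 0.04). Eif3l had 117, 117 and 109 RPKM in KO, against 97.3, 92.2 and 92.4 RPKM in WT libraries (adjusted p = 0.16), and Npm1, the abundant nucleolar chaperone, 20.3, 16.5 and 28.1 RPKM in KO, against 36.9, 27.7 and 31.6 RPKM in WT libraries (adjusted p = 0.18), so members of this list lay on both sides.

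Translation initiation factors gave 0 calls of 34 in limma (9 higher and 5 lower at an unadjusted p under 0.05; median 0.10). Eif3a, the largest subunit of the scaffold that binds the small subunit, had 17.2, 15.5 and 23.9 RPKM in KO and 28.0, 30.3 and 34.1 RPKM in WT libraries (log2 fold change -0.71 ± 0.16 SE, adjusted p = 0.062), and Eif5b, which joins the subunits, 2.70, 2.90 and 3.82 RPKM in KO and 6.96, 4.30 and 5.84 RPKM in WT libraries (adjusted p = 0.12). Genes of mTORC1 and its control of TOP messages gave 0 calls of 29 in limma (2 higher and 1 lower at an unadjusted p under 0.05; median 0.03). Among them Rps6kb1, the kinase of Rps6, had 4.16 ± 1.49 RPKM in KO and 6.59 ± 0.615 RPKM in WT (adjusted p = 0.21), with no overlap.

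Of 15 p53 targets followed as a readout of nucleolar stress, 0 were called in limma (3 higher and 0 lower at an unadjusted p under 0.05; median 0.15). Btg2, an antiproliferative gene, had 73.6, 71.4 and 77.7 RPKM in KO and 51.0, 61.3 and 61.5 RPKM in WT libraries (adjusted p = 0.14), and Bbc3, the gene of the death-promoting protein Puma, 15.3 ± 2.36 RPKM in KO and 11.6 ± 0.988 RPKM in WT (adjusted p = 0.26). Ribosome quality control gave the only call of these lists, with 1 of 19 lower. Nemf, which tags stalled chains on the large subunit, fell to 9.20, 9.48 and 13.4 RPKM in KO 2, KO 3 and KO 4, against 25.6, 19.6 and 25.2 RPKM in WT 1, WT 3 and WT 4 (log2 fold change -1.11 ± 0.17 SE, adjusted p = 0.014 in limma). The call was lost without KO 2 (0.056), KO 3 (0.07) or WT 4 (0.057) and with no filter on low values (0.08), where these lists held 0 calls. Without KO 4 they held 10 calls among 309 genes tested. The number of all genes called also moved with the library left out, as given below, so that count alone says nothing particular of these lists. The voom fit also called 1 gene of these lists. The Nemf transcript had 42.4% GC, against a median of 50.5% over all genes. With the GC and length trends removed, its log2 fold change was -0.86 (adjusted p = 0.014 in limma). Other genes of these lists named above as lower in KO had 39.2% (Rps6kb1) to 44.5% (Eif3a) GC. Those named as higher had 49.7% (Btg2) to 65.2% (Bbc3). The part of GC content in these differences was not tested.

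**Figure D5:**
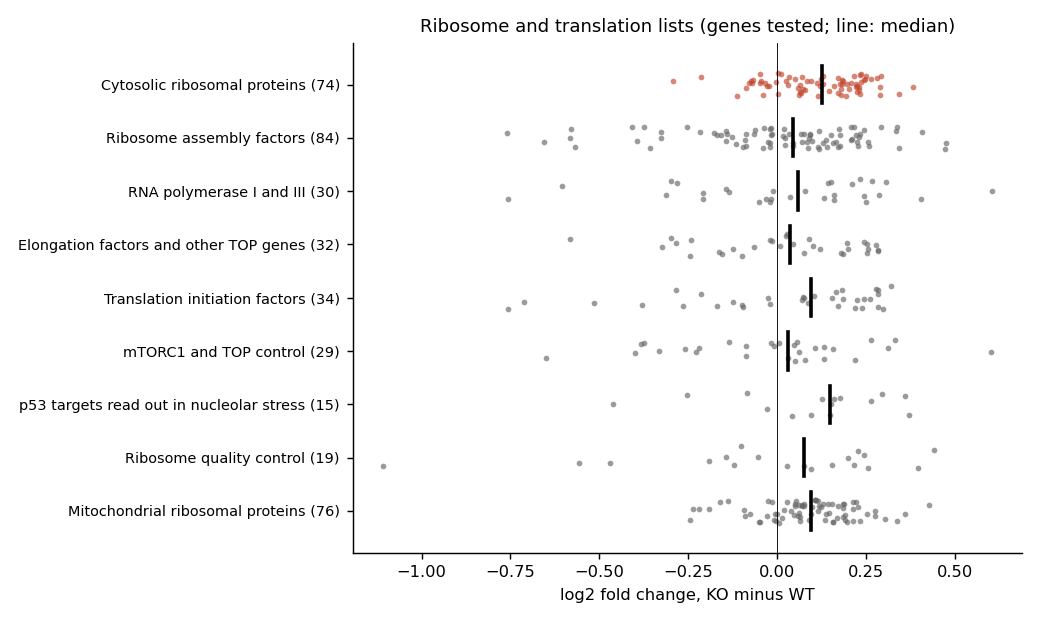
Log2 fold change (KO minus WT, on the log2(RPKM + 0.5) scale) of each tested gene of the cytosolic ribosomal proteins and of 8 further lists, one dot per gene, with a bar at the list's median. The 74 ribosomal protein genes keep within -0.29 and 0.38, a narrower band than the assembly and initiation factors, and Nemf at -1.11 is the far point of the quality control list.

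The mitochondrial ribosome offered a family of like size with another origin. Its 76 genes, all tested, gave 0 calls in limma, 58 positive log2 fold changes (76.3%) and a median of 0.10. At an unadjusted p under 0.05 in limma 9 were higher and 0 lower, against 6.17% and 9.57% of all genes. KO and WT values did not overlap for 16 genes that were higher in KO (21.1%, background 10.7%). The sum was 4092, 4165 and 3943 RPKM in KO 2, KO 3 and KO 4, against 4068, 3447 and 3885 RPKM in WT 1, WT 3 and WT 4, so WT 1 reached the KO libraries and WT 3 lay lowest here as well. Mrpl52 had 215, 215 and 214 RPKM in KO, against 180.2, 134 and 168 RPKM in WT libraries (adjusted p = 0.11 in limma), and Mrpl15 17.2 ± 0.64 RPKM in KO and 13.3 ± 0.816 RPKM in WT (adjusted p = 0.18). Whether the cytosolic and mitochondrial families differ in their shift was not tested.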

How the data were processed

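For 6 libraries the authors deposited RPKM per gene and, in a second table, log2 fold changes and p-values of their own, per the file headers. Per the submitters' processing notes the mm10 build was used with STAR 2.5.2b, Subread, limma and edgeR, and no settings are given. Column numbers differ from the labels' replicate numbers, so columns were assigned to their genotype only, and 0 columns were left unused.

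RPKM are not counts, so limma 3.58.1 (R 4.3.3, with a variance trend) was run on log2(RPKM + 0.5), comparing genotypes. A gene was kept where 3 or more of 6 libraries reached 1 RPKM, which left 11035, with Benjamini-Hochberg adjustment over all of them and a threshold of 0.05. A check on simulated data, with 50 genes per size of shift, recovered 2% at 1.25-fold, 16% at 1.5-fold, 66% at 2-fold and 88% at 3-fold. The largest KO over WT ratio of a tested member was 1.31 (Rps26). The lack of calls among members therefore does not show that their levels were unchanged. For all 17683 genes above 0, whole reads were recovered in every library to within 0.001, which gave the reads for a voom fit and each library's effective size. At these sizes counting error matters only for members of a few RPKM.

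Shared windows (exact matches, either strand) came from GENCODE M21 transcripts, using the coding transcript nearest in length to that behind the RPKM. Unannotated copies are missed. Locations came from RefSeq GRCm38.p6. Members and lists were chosen with earlier results of these data known. Genes named are the highest and lowest in level, change and spread, those below the filter, known disease or signalling members, relatives, and the called or lowest-p genes of each list. Rpl7a, Rpl18, Rpl22, Rpl35, Rpl36a, Rps15a, Rps24 and Rps4x were named after their values were seen. Some genes are not reported here by name, and counts and sums include them. Other pseudocounts, filters, scalings, weights and leaving out each library were tried as alternatives.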

Additional observations from a re-analysis of the deposited data

How the results depend on the processing

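The family results and the members of largest rise and fall kept their direction and their side of the threshold in the alternatives run except as given here. Of the called genes outside the family, Nemf, Pf4, Hspa8 and Rgs5 lost their calls in the unfiltered fit (adjusted p 0.08, 0.11, 0.21 and 0.10) and when some libraries were left out, and Hspa8 in 5 further alternatives. The count of all genes called, 214, was 77 with no filter on low values and 3653 with library quality weights, and 56 to 418 when a library was left out. Members called, 0 in the report, numbered 2 with the GC and length trend removed (Rpl15 and Rps26) and 21 with quality weights (20 higher, 1 lower, background 33.1%). Genes called in the pathway lists, 1 of 309 tested in the report, numbered 0 with no filter (background 0.435%) and 0 to 10 without a library. They numbered 4 with that trend removed (background 2.2%) and 115 with quality weights (background 33.1%). The median log2 fold change of members ran from 0.061 to 0.17 without a library. Members higher in KO with no overlap numbered 23 to 40 of 74 without a library (40 without WT 1). The share of all genes was then 12.9% to 22%, against 10.7% with all libraries. Neither figure can fall when a library is left out. Dividing levels by unshared sequence, an alternative chosen after seeing the data like those of the overlap counts, gave 41.5 and 42.2 in place of 88.5 for the 90th over the 10th percentile. Among the members named, signs turned for Rpl23 (0.024 with the trend removed) and Rps23 (-0.21 to 0.014 without a library). Single members that passed did so only with the trend removed, with quality weights or, for Rps26, with the block. The cause was not tested. The deposited columns do not carry the labels' replicate numbers, but 3 and 4 occur among their own numbers in both genotypes, and nothing in the labels says that these pair libraries. A replicate block on the column numbers, added after seeing the data, called 355 genes (3.22%), 1 member (Rps26, adjusted p = 0.0499 in limma) and 2 genes of the pathway lists, with Stab1 still called and a median of 0.19 over the members. Deviations from the genotype means had correlations of 0.19 within both same-numbered pairs and of -0.16 to 0.094 between other KO and WT libraries (11035 genes). With 3 libraries a group, small changes pass only where the spread is small, and shared sequence limits the levels of members with many copies.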
